A study of Mus musculus with 7 samples.

Results

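The replication-dependent histone genes of the mouse were taken as the protein-coding genes whose symbols begin with Hist1h, Hist2h, Hist3h or Hist4h in the GENCODE M21 annotation of the mm10 genome. The rule found 67 genes among the 55487 gene identifiers of the deposited count tables. By the name of their product, 6 encode the linker histone H1, 18 encode H2A, 18 encode H2B, 12 encode H3 and 13 encode H4. Ovaries were taken at diestrus on postnatal day 60 from 3 control mice (CNTR) and 4 PAMH F3 mice, all C57BL/6J, and each mouse gave 1 library. CNTR mice were offspring of dams given PBS while pregnant. PAMH F3 mice were the third generation after F0 dams had received human recombinant AMH (anti-Müllerian hormone) at 0.12 mg/kg/day from E16.5 to E18.5. No further AMH was given in the later generations. By the paper's methods, PAMH females of the earlier generations were bred with unrelated PAMH males of their own generation. The paper describes CNTR mice as first-generation offspring, so that treatment and generation cannot be told apart.

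Histone proteins package DNA into nucleosomes, each an octamer of H2A, H2B, H3 and H4, with H1 bound to the linker DNA. Most of their mRNAs are made when DNA is replicated, and they are the only mRNAs of animal cells known to end without a poly(A) tail. Their end is a short stem-loop just after the stop codon, bound by SLBP and cut by a complex that contains the U7 small nuclear RNA. Transcripts of some of these genes that run past the stem-loop to a poly(A) site are known in differentiated tissues. The libraries of this series were made from RNA purified on poly-T beads, so the first question was which histone genes had reads in them.

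The stem-loop sits in most of the 67 genes. It was searched in the first 150 transcript bases after the stop codon, on the transcript strand. The pattern was a stem of 6 base pairs, with G-T pairs allowed, and a loop of 4 bases beginning with T. The stem opened with GG and closed with CC, and a match was found in 46 genes. Another 15 genes have at most 2 annotated bases after the stop codon, so the stem-loop could not be sought in them. The sequences below show it in genes with many and with few reads, since it is the feature that marks the usual end of these mRNAs. They are transcript sequences of GENCODE M21 (mm10), 5′ to 3′, with the stem in capitals, the loop between its arms in lower case and 5 flanking bases on each side.
Hist1h1c: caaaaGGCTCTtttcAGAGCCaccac
Hist3h2a: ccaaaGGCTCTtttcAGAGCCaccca
Hist1h1d: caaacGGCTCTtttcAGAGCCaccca
Hist2h3c2: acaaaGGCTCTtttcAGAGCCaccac
Hist1h4i: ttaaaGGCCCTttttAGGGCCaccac
Hist1h4j: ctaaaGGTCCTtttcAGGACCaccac
Hist2h4: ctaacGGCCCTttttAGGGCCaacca
Hist4h4: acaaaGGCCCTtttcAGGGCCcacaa
Hist1h1t: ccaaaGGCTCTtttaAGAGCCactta
Hist1h4a: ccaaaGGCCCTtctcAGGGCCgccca
The stems of Hist1h1c, Hist3h2a, Hist1h1d and Hist2h3c2 read alike, whereas the H4 genes shown carry other stem bases that still pair. In Hist1h1c the stem-loop ended 840 bases before the annotated end of the transcript and in Hist1h4i 330 bases before it. In Hist1h4a, which had 6 counts in all, it ended 108 bases before the end. No match was found in Hist1h2bc and Hist2h2be, which were among the most abundant of the genes.

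Few of these genes had enough counts to be tested. Of the 67, 18 had 0 counts in all 7 libraries, 49 had at least 1 count in any library, 36 never exceeded 3 counts in a library, and 11 had at least 10 counts in every library. The low-count filter of edgeR (filterByExpr, minimum count 10) left 15 genes for testing, out of 18779 genes tested in all. A count of 0 over the 7 libraries allows up to 0.0128 CPM (counts scaled to library size by edgeR's TMM method), and between 0.0845 and 0.0933 CPM within a single library, with counting error alone considered. Together the 67 genes held 2562 to 4728 counts per library, of 32158174 to 35485021 gene counts.

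Detection differed by class and by cluster. All 6 H1 genes had at least 1 count and 3 were tested, and they took 41.0% of the counts of the family. Among H2A genes 9 of 18 were at 0 throughout and 2 were tested, with 9.03% of the counts. The H2B genes took 44.8% of the counts through 4 tested genes, with 3 genes at 0. H3 genes (12, of which 4 were at 0 and 2 tested) and H4 genes (13, of which 2 were at 0 and 4 tested) took 2.16% and 3.02%.

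The Hist1 cluster on chromosome 13 holds 54 of the genes in a lower block (chr13:21715763-22043676) and an upper block (chr13:23531050-23934851). In the lower block 13 of 23 genes were at 0, 2 were tested, and the block took 2.04% of the counts. In the upper block 1 of 31 was at 0, 8 were tested, and the share was 65.0%. The Hist2 cluster (chr3:96219865-96270132) took 24.5% through 3 tested genes of 10, the 2 genes of Hist3 (chr11:58948920-58956830) took 8.17% and Hist4h4, alone on chromosome 6, took 0.268%. The split of the Hist1 cluster at the gap between its blocks was chosen after the values were seen.

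Most of the reads fell on genes annotated with a long stretch of transcript after the stop codon. Of the 15 genes with at most 2 annotated bases after it, none was tested, and all 15 together held 65 counts in the 7 libraries. Another 30 genes had between 3 and 250 such bases, none was tested, and they held 242 counts or 0.983% of the total. The remaining 22 genes, with over 250 bases, included all 15 tested and held 24299 counts or 98.8%. Among the tested genes the stretch ran from 376 bases (Hist1h4i) to 4931 bases (Hist1h1d) with a median of 1258, against a median of 77.5 for the 52 not tested. The limit of 250 bases was chosen after the values were seen, and annotated ends may rest on transcripts that were themselves read from poly(A) tails. Counts, and with them the filter, also rise with transcript length.

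**Figure D1:**
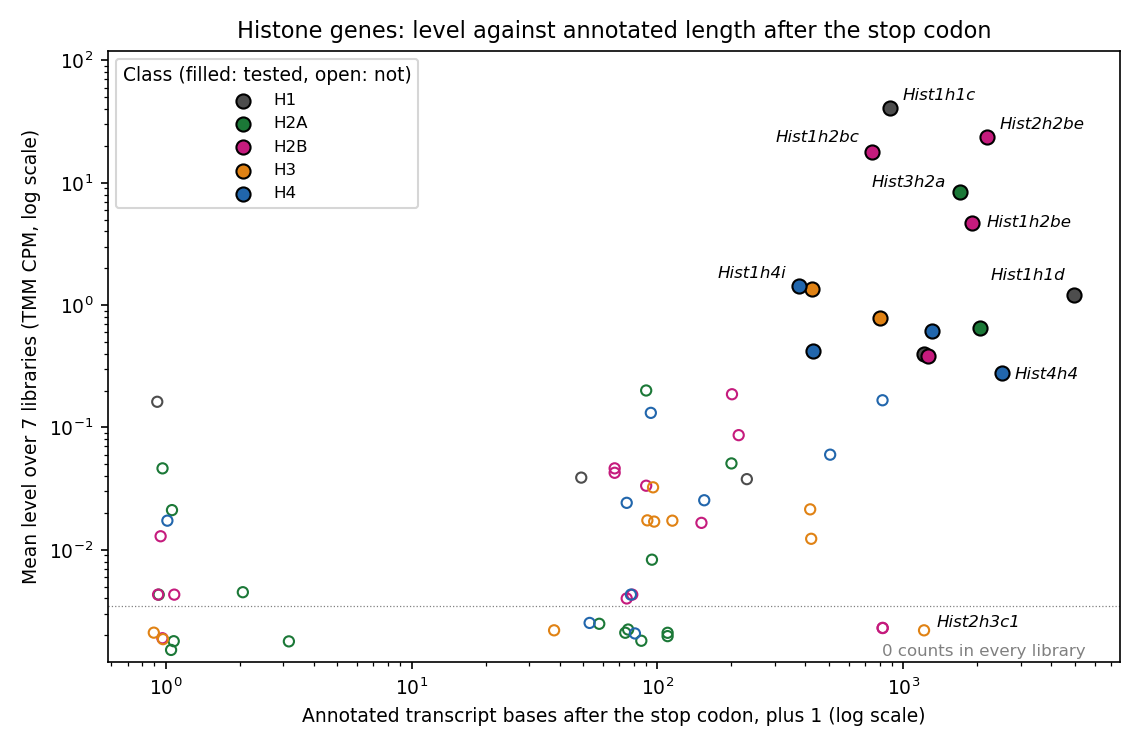
Mean TMM CPM over the 7 libraries (vertical, log scale) against annotated transcript bases after the stop codon plus 1 (horizontal, log scale) for 67 histone genes, coloured by class, filled where tested and open where not; points at 0 to 2 bases and points below the dotted line, which had 0 counts, are spread slightly for visibility. All 15 filled points lie at 376 bases or more, from 0.278 CPM (Hist4h4) to 41.0 CPM (Hist1h1c), and Hist2h3c1 stands among the genes at 0 with 1213 bases.

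A long annotated end did not always come with reads. Of the 22 genes, 7 were not tested. Hist1h2bq and Hist1h2br were at 0 and share their coding sequence, and at most 0.166% of the 50-base windows of either transcript occur in no other gene's transcript. Hist2h3c1 was at 0 as well, and all 1825 exonic bases of it lie within Gm20634 on the same strand. Hist1h3e held 3 counts in all, Hist1h3f 5, Hist1h4c 14 and Hist1h4d 39. Of their windows, 26.6%, 50.7%, 80.4% and 89.8% were unique, in that order. After the stop codon alone the share was 15.9% for Hist1h3e and 14.9% for Hist1h3f, and 100% for Hist1h4c and Hist1h4d.

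Sequence shared among the genes bears on what could be counted, since only uniquely aligned reads were. Reads were 50 bases long, and each 50-base window was sought in the annotated transcripts of other genes. Genes whose exons overlap the histone gene in the genome were left aside, so sequence shared through such an overlap counted as unique. The share of unique windows had a median of 88.6% over the tested genes and of 10.0% over the 18 genes at 0. Within coding sequence alone these medians were 32.3% and 0%. Hist2h2be was unique over its whole length (100%), whereas Hist2h3c2, which shares its coding sequence with Hist2h3c1, was unique over 36.5% of its windows. Alignments set aside as not unique made up 37.7% to 40.7% per library, over all genes. How far read assignment, the poly(A) selection or transcription set each gene's count was not tested.

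Per kilobase of exon, the tested histone genes had modest levels. Hist1h1c had 26.3 CPM per kb, Hist1h2bc 15.3, Hist2h2be 9.04 and Hist3h2a 3.95. The median of the 15 was 0.632 CPM per kb and the lowest was Hist4h4 at 0.0972, against a median of 4.67 over all genes tested that could be assigned a length. Hist1h1c, Hist1h2bc and Hist2h2be therefore exceeded the median gene, and Hist3h2a did not. The 52 genes not tested had a median of 0.0153 CPM per kb. The highest of them, Hist1h2ad with 89 bases after the stop codon, had 0.351 CPM per kb, above some tested genes such as Hist4h4. In total level, without regard to length, Hist1h1c, Hist2h2be, Hist1h2bc and Hist3h2a made up 86.8% of the summed CPM of the 67 genes, and the 52 genes not tested made up 1.495%.

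Genes known for expression in the testis were close to absent. Hist1h1t, the H1 of spermatocytes, had 9 counts over the 7 libraries and never more than 3 in one. Hist1h2aa had 11 counts, at most 4 in one library, and Hist1h2ba had 1 count. These 2 genes have no annotated base after the stop codon.

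The comparison between groups asked whether histone transcripts differ in ovaries of the third generation of the PAMH lineage. In bulk tissue, fewer cells of a type and less RNA per cell cannot be told apart. Hist1h1c (ENSMUSG00000036181, chr13:23738808-23740367, 1 exon), the most abundant linker histone here, had 41.5, 59.3 and 42.3 CPM in the CNTR libraries 1 to 3 and 37.6, 34.9, 42.7 and 28.5 CPM in PAMH F3 libraries 1 to 4. CNTR replicate 2 was highest and PAMH F3 replicate 4 lowest, and PAMH F3 replicate 3 lay above CNTR replicates 1 and 3. In the model with 2 surrogate variables, the log2 fold change of PAMH F3 against CNTR was −0.31 ± 0.098 (SE), with an unadjusted p of 0.0162 and an adjusted p of 0.567 by edgeR's quasi-likelihood test. Group means were 47.7 ± 10.1 CPM (SD, n = 3) and 35.9 ± 5.90 CPM (SD, n = 4), and the exact permutation test of their difference (two-sided) gave p = 0.114.

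Hist2h2be (ENSMUSG00000068854, chr3:96221119-96223738), an H2B gene of the Hist2 cluster, was the one histone gene whose groups did not overlap. Its levels were 25.6, 24.8 and 28.3 CPM in CNTR and 23.9, 20.3, 22.3 and 20.6 CPM in PAMH F3. All 4 PAMH F3 libraries lay below the lowest CNTR library, by a narrow margin for replicate 1. The log2 fold change was −0.27 ± 0.097 (SE), with an unadjusted p of 0.0249 and an adjusted p of 0.599 in edgeR, and the exact permutation test gave p = 0.0571, where 0.0286 is the smallest p that its 35 divisions allow. Over all genes tested, the groups did not overlap for 4.25%, of which 2.4% with PAMH F3 lower and 1.85% with it higher.

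Hist1h2bc (ENSMUSG00000018102, chr13:23684199-23692908), an H2B gene with a transcript of 2 exons, had its highest level in CNTR replicate 2. It had 14.8, 32.7 and 17.1 CPM in CNTR and 13.8, 15.1, 18.3 and 12.2 CPM in PAMH F3. The other libraries of both groups overlapped. The log2 fold change was −0.25 ± 0.098 (SE; edgeR unadjusted p 0.0357, adjusted p 0.631) with 2 surrogate variables, −0.54 with 0 surrogate variables, −0.11 (unadjusted p 0.324) without CNTR replicate 2 and −0.68 (unadjusted p 0.00032) without CNTR replicate 1. Without PAMH F3 replicate 2 or PAMH F3 replicate 4 the unadjusted p was 0.189 or 0.108.

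Hist1h4i (ENSMUSG00000060639, chr13:22040636-22041362), the most abundant H4 gene, was low in both groups. Its values were 1.36, 2.82 and 1.58 CPM in CNTR and 0.992, 0.934, 1.42 and 0.878 CPM in PAMH F3. The groups overlapped through PAMH F3 replicate 3 alone, and CNTR replicate 2 was again highest. The log2 fold change was −0.60 ± 0.214 (SE; edgeR unadjusted p 0.0252, adjusted p 0.599), and it ran from −0.46 (unadjusted p 0.107) without PAMH F3 replicate 2 and −0.48 (unadjusted p 0.101) without CNTR replicate 2 to −0.996 (unadjusted p 0.0052) without CNTR replicate 1.

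**Figure D2:**
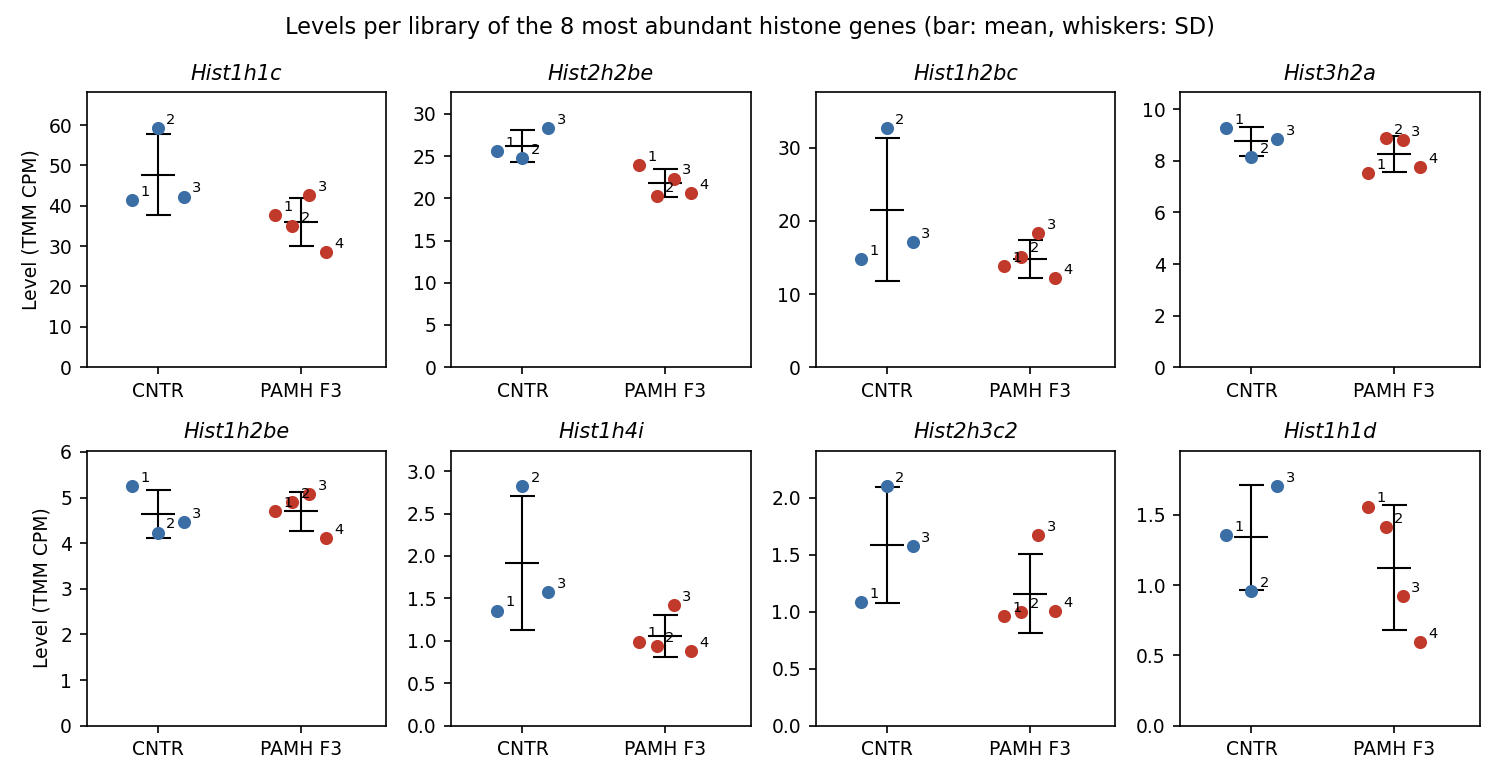
TMM CPM (vertical axes, from 0, each with its own scale) of the 8 most abundant histone genes in the CNTR (blue) and PAMH F3 (red) libraries; numbers beside the points give the replicate, horizontal bars the group mean and whiskers the SD (n = 3 and n = 4). CNTR replicate 2 is highest for Hist1h1c, Hist1h2bc, Hist1h4i and Hist2h3c2, and the groups are apart only for Hist2h2be.

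No histone gene passed the adjusted threshold of 0.05, and neither did any of the 18779 genes tested by edgeR (0%), with a smallest adjusted p of 0.567 among the histone genes and of 0.111 among all genes. DESeq2 with the same surrogate variables called 0 histone genes and 102 genes in all. At an unadjusted p under 0.05 there were 4 histone genes of 15, those described above, all lower in PAMH F3. Over all genes tested 7.64% lay under that limit, 3.89% with PAMH F3 lower and 3.75% with it higher. With 0 surrogate variables 3 of the 15 lay under it, all lower, against 3.95% of all genes and 2.84% with PAMH F3 lower. The median log2 fold change of the 15 was −0.21 and 12 of them were below 0, against a median of 0.0049 and 48.3% below 0 over all genes. These 15 are the members that the filter on low counts left and not the whole family. Without CNTR replicate 1 there were 5 genes under that limit, and without PAMH F3 replicate 1 or PAMH F3 replicate 3 there were 4. Leaving out CNTR replicate 2 left 1 under an unadjusted p of 0.05 (Hist2h2be). Leaving out CNTR replicate 3 left 3, with Hist2h2be at 0.1001, and leaving out PAMH F3 replicate 2 or PAMH F3 replicate 4 left 0. The share of all genes under that limit is not given for these fits, so the counts are not set against one. In the fit without CNTR replicate 1, 39 of all genes tested passed the adjusted threshold.

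The other 11 tested genes had unadjusted p values of 0.25 or more, and their values spread to both sides of 0. Hist3h2a, the most abundant H2A gene, had 9.28, 8.16 and 8.85 CPM in CNTR and 7.54, 8.88, 8.82 and 7.78 CPM in PAMH F3, and the fitted log2 difference was −0.10 ± 0.126 (SE). Its groups overlapped fully in the middle of their ranges, and 708 of its 2146 exonic bases are shared with Trim17 on the same strand. Hist1h2be had 4.23 to 5.24 CPM in CNTR and 4.11 to 5.08 CPM in PAMH F3, and its log2 fold change of −0.03 turned to 0.02 with 0 surrogate variables. Some of its exonic sequence, 496 bases, is shared with Hist1h1e. Hist2h3c2, the most abundant H3 gene, had 1.08, 2.10 and 1.58 CPM in CNTR and 0.963, 0.994, 1.67 and 1.00 CPM in PAMH F3, and its log2 fold change was −0.21 ± 0.236 (SE). This value ran from −0.06 without PAMH F3 replicate 2 to −0.64 (unadjusted p 0.0474) without CNTR replicate 1.

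Among the remaining tested genes, the H1 gene Hist1h1d ran from 0.596 to 1.70 CPM and the H2A gene Hist1h2ac from 0.533 to 0.813 CPM. The values of both groups were interleaved in each. Hist1h4j, an H4 gene of the lower Hist1 block, had the highest log2 fold change of the 15, 0.44 ± 0.356 (SE), and Hist1h3d, an H3 gene, followed with 0.32 ± 0.295 (SE). Hist2h4 had −0.35 ± 0.298 (SE) at 0.392 to 0.878 CPM. The standard errors of these low genes were as large as or close to their fold changes.

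**Figure D3:**
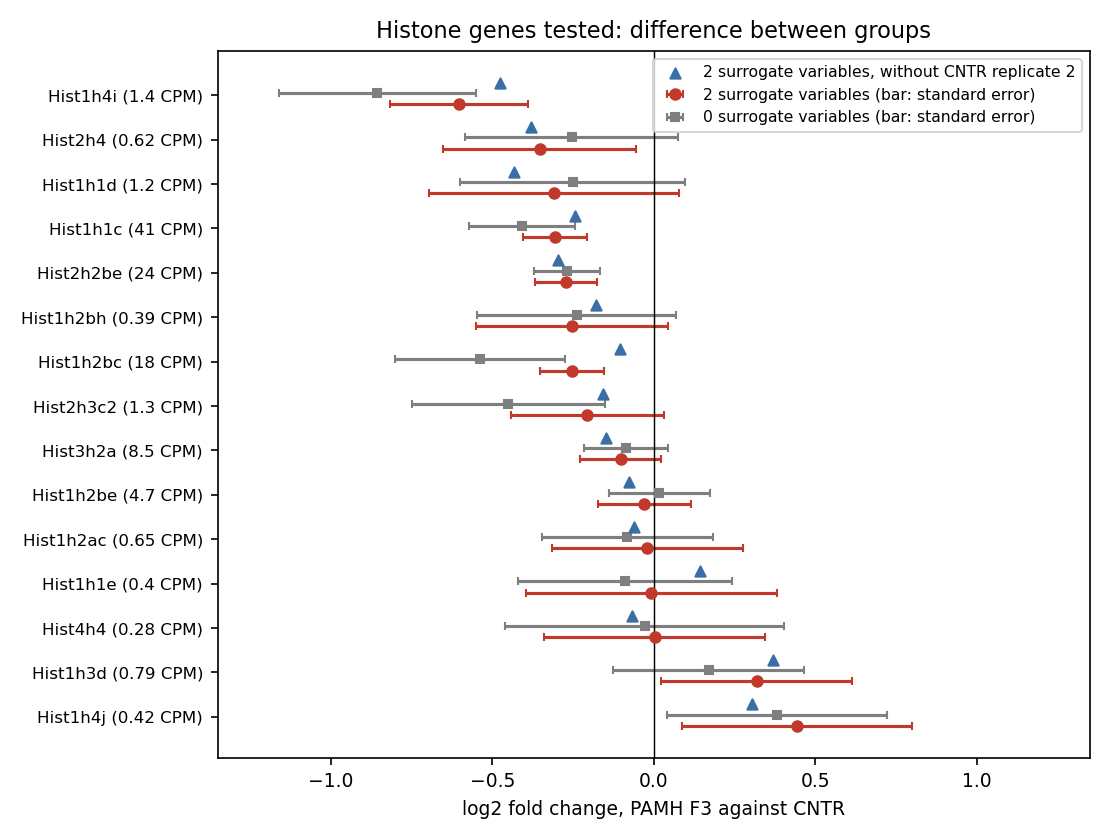
log2 fold change of PAMH F3 against CNTR (horizontal) for the 15 histone genes tested, with mean CPM beside each name, for 2 surrogate variables (red circles) and 0 surrogate variables (grey squares), with bars giving 1 standard error, and for 2 surrogate variables without CNTR replicate 2 (blue triangles, no error drawn). Hist1h2bc moves from −0.54 to −0.25 to −0.11 across the settings, whereas Hist2h2be stays between −0.30 and −0.27.

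The summed level of all 67 genes was 105.0, 141.9 and 110.8 CPM in CNTR and 95.9, 91.9, 106.5 and 80.3 CPM in PAMH F3. The groups overlapped, since PAMH F3 replicate 3 exceeded CNTR replicate 1. The group means were 119 ± 19.8 CPM (SD, n = 3) and 93.6 ± 10.8 CPM (SD, n = 4), a ratio of 0.785, and the ratio ran from 0.741 to 0.868 as libraries were left out in turn. It was 0.868 without CNTR replicate 2. By class the ratio was 0.758 for H1, 0.932 for H2A, 0.789 for H2B, 0.839 for H3 and 0.691 for H4. Few genes set some of these sums. Hist1h1c held 9644 of the 10080 counts of H1, and Hist2h2be and Hist1h2bc held 5567 and 4166 of the 11029 counts of H2B. The H4 sum was 5.13 CPM in CNTR replicate 2, against 3.10 and 3.31 CPM in CNTR replicates 1 and 3.

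**Figure D4:**
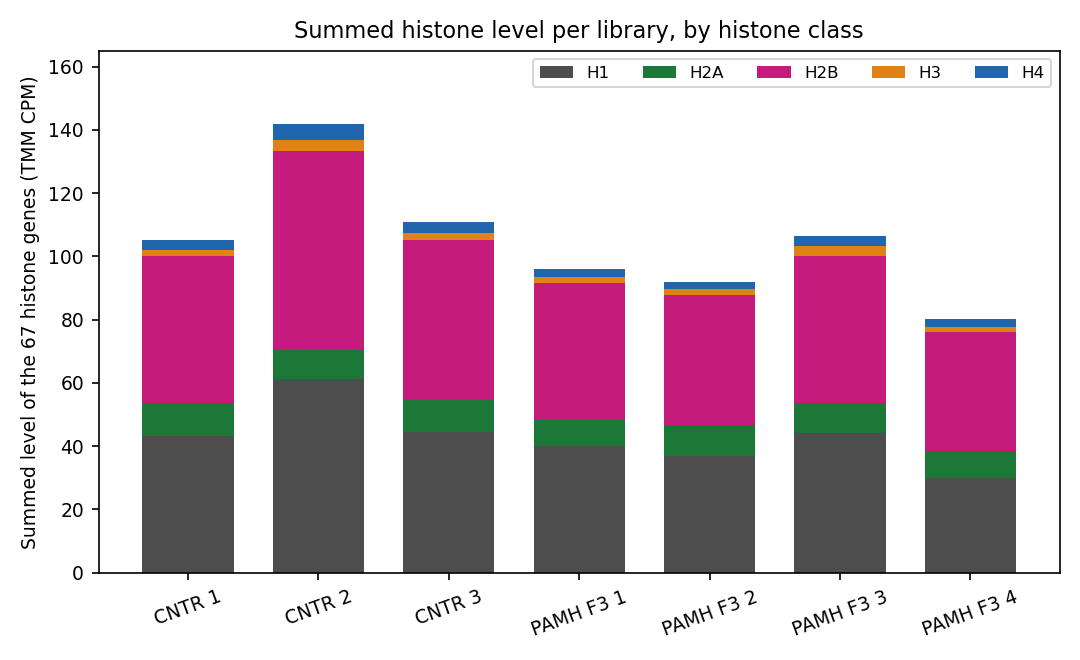
Summed TMM CPM of the 67 histone genes (vertical, from 0) in each of the 7 libraries, stacked by histone class. The bars run from 80.3 (PAMH F3 replicate 4) to 141.9 (CNTR replicate 2), and H1 and H2B fill most of each.

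The library that stood highest also differed in other measures. CNTR replicate 2 was the highest library for 5 of the 15 tested histone genes, near the share of 25.1% over all genes tested. PAMH F3 replicate 4 was the lowest for 6 of the 15, against 14.5% of all genes tested. Among the 52 genes not tested, CNTR replicate 2 held 104 counts, against 33 to 57 in the other libraries. Hist1h4h alone had 21 counts in it and 0 to 5 elsewhere, a gene singled out after its values were seen.

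In CNTR replicate 2, gene levels relative to the mean of all libraries had a slope of 0.318 log2 units per 10% GC content, against −0.129 to 0.0502 in the others. The GC content of the exons was 55.1% in Hist1h1c, 45.9% in Hist1h2bc, 52.8% in Hist1h4i, 60.2% in Hist2h3c2 and 45.3% in Hist2h2be, with a median of 49.7% over all genes tested. After correction for GC content and length, without surrogate variables, fitted log2 differences were −0.29 for Hist1h1c, −0.53 for Hist1h2bc, −0.73 for Hist1h4i, −0.15 for Hist2h3c2 and −0.30 for Hist2h2be. Without the correction these were −0.41, −0.54, −0.86, −0.45 and −0.27. The correction thus moved the value of Hist2h3c2 most and that of Hist1h2bc least among the 4 of these genes that lay highest in CNTR replicate 2. Hist1h1e, also highest in that library, went from −0.0877 without the correction to −0.0482 with it.

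Of 11 RNAs made without a poly(A) tail that were looked up, 5 had 0 counts throughout and 1 was tested. This was Rn7sk, the 7SK small nuclear RNA that holds the elongation factor P-TEFb inactive. It had 3.83, 16.47 and 8.39 CPM in CNTR and 3.00, 4.10, 3.49 and 3.76 CPM in PAMH F3. It was highest in CNTR replicate 2, the library in which histone levels were highest, and its log2 fold change was −0.78 ± 0.192 (SE; edgeR unadjusted p 0.0043, adjusted p 0.511) with 2 surrogate variables and −1.41 with 0. The paper, which used DESeq2 with sva, lists Rn7sk among its significantly downregulated genes. Whether the level of Rn7sk follows the bead selection was not tested. The part of GC content and of RNA without a tail in the histone values was not tested.

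Correlations among the 15 tested genes across the libraries ranged widely. Of 105 pairs, 64 had a positive Pearson correlation of log2 CPM, the median r was 0.08 and the values ran from −0.86 to 0.95. The median was 0.0085 without PAMH F3 replicate 4 and 0.15 without CNTR replicate 2. At an unadjusted exact permutation p under 0.05 there were 8 pairs, and after Benjamini-Hochberg adjustment over the 105 pairs there were 0, with a smallest adjusted p of 0.0625. Each r is over 7 libraries of both groups, so that a difference between groups enters it. Values within a group are not given, since 3 or 4 libraries are too few for one.

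The highest correlations were among Hist1h1c, Hist1h2bc and Hist1h4i. Hist1h1c and Hist1h4i had r = 0.95 and rho = 0.96 (exact permutation p = 0.0006 and 0.0028, adjusted p = 0.0625 and 0.292). Without CNTR replicate 2 and PAMH F3 replicate 4, the libraries farthest from the median of the first gene, r was 0.96. For Hist1h2bc and Hist1h4i r was 0.94 and rho 0.86 (exact permutation p = 0.0034 and 0.0238, adjusted p = 0.0708 and 0.512), and for Hist1h1c and Hist1h2bc r was 0.93 and rho 0.89 (exact permutation p = 0.0032 and 0.0123, adjusted p = 0.0708 and 0.512). Leaving out those same libraries brought these r values to 0.72 and 0.65.

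Hist2h3c2, from another chromosome, had r between 0.83 and 0.91 with these 3 genes, a set joined after the values were seen. The r to Hist1h1c was 0.58 for Hist2h2be and 0.22 for Hist3h2a, and 0.71 and 0.60 without CNTR replicate 2. For Hist3h2a it ran from −0.14 to 0.60 as libraries were left out. The lowest pair was Hist1h2bh and Hist1h4j, at −0.86.

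**Figure D5:**
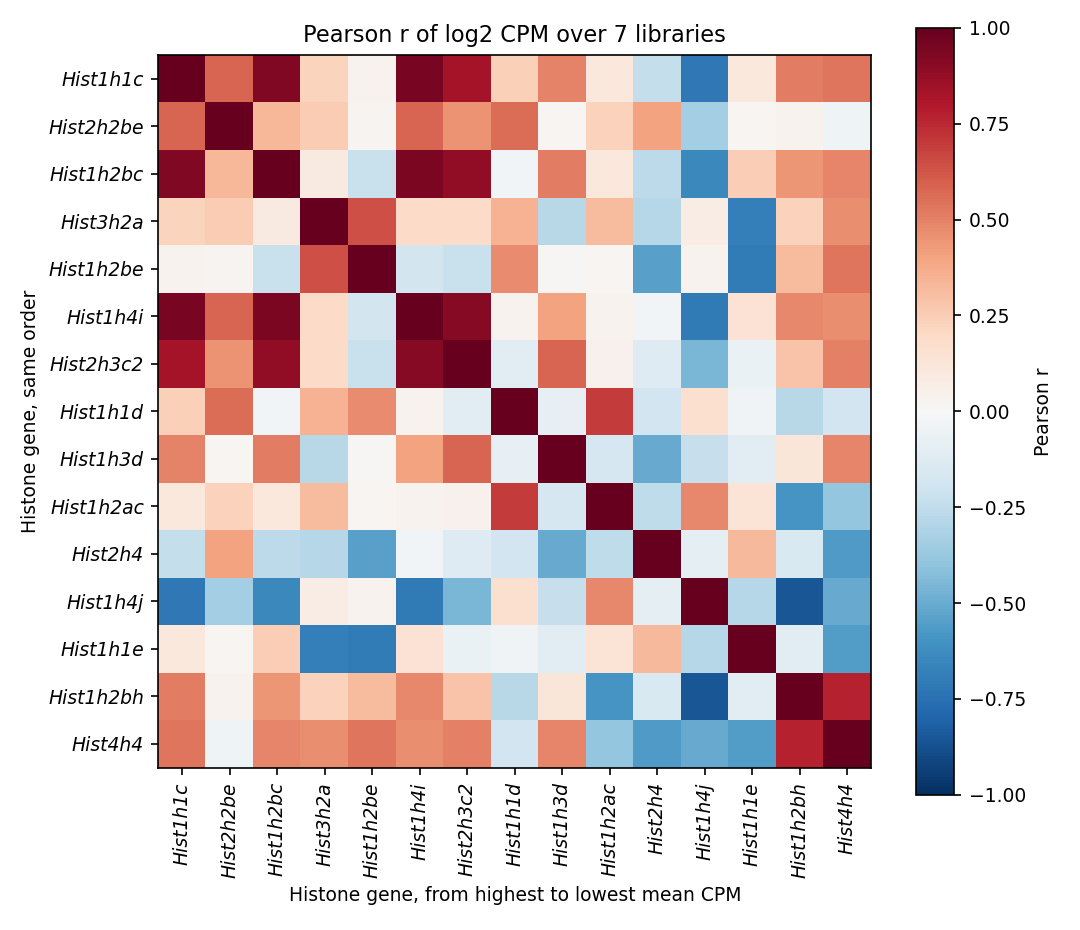
Pearson r of log2 TMM CPM over the 7 libraries for each pair of the 15 histone genes tested, ordered by mean CPM on both axes, from −1 (blue) to 1 (red), with the diagonal at 1 by construction. The darkest red squares off the diagonal join Hist1h1c, Hist1h2bc, Hist1h4i and Hist2h3c2, and pale or blue squares fill much of the rest.

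Promoters of the genes in the pairs with the highest r are shown for their sequence, with no pair past the adjusted threshold. RefSeq promoter windows (GRCm38.p6, 250 bases before to 50 after the annotated start) matched 62 of the 67 genes. That of Hist1h2bc was not among them, but the window of Hist1h2ac, which is transcribed away from Hist1h2bc, covers its start. Capitals mark the letters of a TATA box (TATAAA), of a CCAAT box (the letters of its name) and of the octamer bound by POU2F1 (ATTTGCAT), each searched on both strands, and each window is read in the direction of its gene.
Hist1h1c (chr13:23738557-23738856, plus strand): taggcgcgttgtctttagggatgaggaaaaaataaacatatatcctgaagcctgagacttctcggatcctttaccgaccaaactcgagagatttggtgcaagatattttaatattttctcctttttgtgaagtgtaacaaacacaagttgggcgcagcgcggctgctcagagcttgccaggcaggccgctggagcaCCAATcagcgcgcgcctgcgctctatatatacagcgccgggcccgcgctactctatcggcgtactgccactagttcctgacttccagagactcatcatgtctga
Hist1h4i (chr13:22041313-22041612, minus strand): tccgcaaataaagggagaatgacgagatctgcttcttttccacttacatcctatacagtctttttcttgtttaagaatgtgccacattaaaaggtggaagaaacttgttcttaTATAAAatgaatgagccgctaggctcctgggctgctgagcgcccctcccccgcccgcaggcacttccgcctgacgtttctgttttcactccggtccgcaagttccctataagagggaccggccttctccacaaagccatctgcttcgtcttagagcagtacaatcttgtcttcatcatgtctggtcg
Hist1h2ac (chr13:23683910-23684209, minus strand): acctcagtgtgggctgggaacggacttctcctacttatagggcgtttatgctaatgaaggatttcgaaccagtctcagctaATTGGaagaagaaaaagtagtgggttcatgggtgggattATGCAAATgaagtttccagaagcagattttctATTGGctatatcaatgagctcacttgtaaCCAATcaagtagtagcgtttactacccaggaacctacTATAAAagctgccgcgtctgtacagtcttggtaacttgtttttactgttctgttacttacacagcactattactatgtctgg
The windows shown differ in what they hold. CCAAT is in those of Hist1h1c and Hist1h2ac and was not found in that of Hist1h4i, TATAAA is in those of Hist1h4i and Hist1h2ac, and the octamer is in that of Hist1h2ac alone. The search took exact letters at any distance from the start. In Hist1h4i the TATAAA lies well upstream of the annotated start. In Hist1h1c the letters tatatata closer to its start were not marked, so the marks do not tell which gene has a working TATA box.

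Across the 62 windows, CCAAT was found in 85.5% (37.4% of all 32851 windows in the table), TATAAA in 56.5% (13.6% of all) and the octamer in 20.97% (1.74% of all). CCAAT stood in every matched H1, H2A, H2B and H3 window and in 3 of 12 H4 windows. The octamer stood in 7 of 18 H2A and 6 of 16 H2B windows and in 0 of the others. Windows of H2A and H2B genes that are transcribed away from each other share bases, so these counts are not of separate sequences. Exact matches at any position were counted, and a match of letters does not show binding.

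Genes that make or use histone mRNA were read from the same fit. The list of histone mRNA processing and transcription factors held 25 genes, all tested. Of these 1 was higher and 0 lower at an unadjusted p under 0.05, beside 3.75% higher and 3.89% lower over all genes tested. The gene was Hinfp, which encodes a factor that activates H4 genes, with a log2 fold change of 0.15 ± 0.0631 (SE; edgeR unadjusted p 0.0468, adjusted p 0.65). Slbp, which encodes the stem-loop binding protein, had −0.06 ± 0.106 (SE), with 45.8 to 50.8 CPM in CNTR and 42.6 to 54.8 CPM in PAMH F3. Npat, the coactivator of histone genes at the histone locus body, had −0.07, Casp8ap2, of the same body, had −0.11, and Lsm10 and Lsm11, of the U7 particle, had 0.05 and 0.04.

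The 12 histone genes listed as replication-independent, whose mRNAs mostly carry poly(A) tails, had 0 genes in either direction at an unadjusted p under 0.05. Their summed level was 937 to 1051 CPM in CNTR and 882 to 991 CPM in PAMH F3, above that of the 67 genes in every library. Selection on poly-T beads favours mRNAs with tails, so these sums do not give the balance between the sets in the tissue. H3f3b, an H3.3 gene and the most abundant of the 12, had a log2 fold change of −0.11 ± 0.0618 (SE). H1fx, a linker histone gene, had 0.784, 3.36 and 1.27 CPM in CNTR and 0.658 to 1.65 CPM in PAMH F3, with CNTR replicate 2 again highest, and a log2 fold change of −0.35 ± 0.268 (SE).

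Of 20 histone chaperone genes 1 was higher and 1 lower at an unadjusted p under 0.05, beside 3.75% higher and 3.89% lower over all genes tested. Hjurp, the chaperone of the centromeric histone CENP-A, had 597 to 615 CPM in CNTR and 656 to 776 CPM in PAMH F3 (log2 fold change 0.25 ± 0.0792, SE; edgeR unadjusted p 0.0164, adjusted p 0.567). Its groups did not overlap, as for 4.25% of all genes tested (1.85% with PAMH F3 higher). Anp32e, which removes H2A.Z from nucleosomes, had −0.21 ± 0.0587 (SE; edgeR unadjusted p 0.0095, adjusted p 0.536).

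Genes of DNA replication are those whose activity usually goes with histone mRNA. Of 32 listed, 0 lay under an unadjusted p of 0.05, 12 were below 0, the median log2 fold change was 0.02 with 2 surrogate variables and 0.08 with 0, and the summed level was 946 to 1265 CPM in CNTR and 1054 to 1325 CPM in PAMH F3. Of the 16 mitotic genes 0 lay under that limit and 3 were below 0, with a median of 0.05 with 2 surrogate variables and 0.12 with 0, and sums of 543 to 873 CPM in CNTR and 680 to 887 CPM in PAMH F3. CNTR replicate 2, highest in summed histone level, was lowest in both of these sums, and PAMH F3 replicate 4, lowest in summed histone level, was highest in both.

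Markers of ovarian cells were present in all libraries. The 12 oocyte markers were all tested with 0 at an unadjusted p under 0.05, and their sums were 542 to 655 CPM in CNTR and 423 to 679 CPM in PAMH F3. Of 8 granulosa cell markers 2 were higher and 2 lower at that limit, and of 4 luteal markers 2 were lower, beside 7.64% of all genes tested, 3.89% lower. All 4 luteal, 4 theca, 5 erythroid, 4 endothelium and 4 adipocyte markers tested had log2 fold changes below 0, with medians of −0.28, −0.25, −0.33, −0.18 and −0.66. There were 0 calls at that limit for theca, stroma, erythroid, oviduct epithelium and adipocyte markers, and 1 lower each for leukocytes and endothelium. Oviduct epithelium markers, from tissue next to the ovary, summed to 2950 to 5240 CPM in CNTR and 2526 to 6349 CPM in PAMH F3, and adipocyte markers to 237 to 749 CPM and 97.2 to 543 CPM. The part of cell composition in the histone values was not tested.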

How the data were processed

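Each library was made from ovarian RNA of 1 mouse with a stranded poly(A) kit and single reads of 50 bases. The authors mapped reads to mm10 with STAR 2.5.3a and counted uniquely aligned reads per gene with HTSeq 0.6.1p1 in union mode, and these raw counts were deposited without normalization. The strand setting of the counting and the Ensembl release are not given in the sources used here. The labels give the injections as subcutaneous and the paper as intraperitoneal. Nothing was left out of the 7 libraries (3 CNTR, 4 PAMH F3), whose gene counts summed to 32158174 to 35485021, and summary lines for unassigned reads stayed out of sums and tests. Replicates differed by more than sampling noise.

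Of the 55487 identifiers, 55394 were matched to GENCODE M21. CPM are counts scaled to library size with edgeR's TMM factors. Genes kept by filterByExpr were tested with the quasi-likelihood F test of edgeR 4.0.16 (R 4.3.3, robust fitting off) with 2 surrogate variables from sva 3.50.0, with Benjamini-Hochberg adjustment over all genes tested. DESeq2 1.42.0 served as an alternative and for size factors. The test was checked on simulated data. Single genes were also compared by exact permutation over 35 divisions of the libraries, and pairs over 5040 orders. Exact tests of single genes are unadjusted and were run on 15 genes.

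Members and lists were chosen with earlier results of these data known. Named were the 12 members with the highest mean CPM, the 8 with the smallest p, any without overlap, the highest of each class and cluster, testis-specific members, the 3 most correlated pairs and, of each list, at most 3 by p and 2 by level, with 5 histone mRNA processing genes in addition. Hist1h1e, Hist1h2ad, Hist1h2bh, Hist1h4a, Hist1h4h and the untested genes with long ends were named after their values were seen. Alternatives changed the number of surrogate variables, the tool, the normalization, the filter, a replicate block, a correction for GC content and length, and left out 1 library at a time.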

Additional observations from a re-analysis of the deposited data

Results flagged for a closer look

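Among the 4 PAMH F3 libraries, the gap of the most extreme library to its neighbour was set against the whole range for 16 histone values, the 15 tested genes and the summed level. Hist2h3c2 had 1.67 CPM in PAMH F3 replicate 3 against 0.963 to 1.00 CPM in its 3 companions, a gap of 0.944 of the range. Hist1h2bh, an H2B gene, had 0.418 CPM in that library and 0.331 to 0.345 CPM in the rest of the group, a gap of 0.844 of the range. These values rest on few counts, 15 in that library against 12, 11 and 11 in PAMH F3 replicates 1, 2 and 4. Both gaps exceed Dixon's limit at the 95% level for 4 samples, which about 1 in 20 groups passes by chance.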

How the results depend on the processing

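No histone gene passed the adjusted threshold under any alternative that was run. Over all genes, 0 passed in edgeR as reported, 102 in DESeq2 with 2 surrogate variables, 8 in DESeq2 with 0 surrogate variables, 8 without the filter on low counts, and 0 to 39 as libraries were left out (39 without CNTR replicate 1, 37 without PAMH F3 replicate 1). Histone genes at an unadjusted p under 0.05 numbered 4 as reported and 0 to 5 as libraries were left out. Those without overlap numbered 1 and, as libraries were left out, 1 to 4 (2 without CNTR replicate 1, 3 without CNTR replicate 3, 4 without PAMH F3 replicate 3). For both of these counts the share over all genes is not given with a library left out. The changes in them are therefore not read as a result about the histone genes. The median r over pairs ran from 0.0085 to 0.15 as libraries were left out. Detected genes numbered 15 by the filter and 49 with at least 1 count. The cause of these changes was not tested, except that fewer libraries leave fewer values to overlap.

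The groups share replicate numbers, but deviations from the group means correlated at 0.0987, 0.1 and −0.258 for numbers 1, 2 and 3, so the numbers were not taken to pair the samples. With a replicate block and 0 surrogate variables, 0 histone genes lay under an unadjusted p of 0.05.

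Of 250 values of single genes under 17 alternatives, 227 kept their direction and 23, in 5 genes, did not. The reported value was −0.31 for Hist1h1d and between −0.03 and 0.0037 for the other 4. Hist1h2be was 0.0176 with 0 surrogate variables, 0.0195 with 1 surrogate variable, 0.0202 in DESeq2 with 0 surrogate variables and 0.0813 with the replicate block. Hist4h4 was −0.0278 with 0 surrogate variables, −0.0199 with 3 surrogate variables, −0.0271 in DESeq2 with 2 and −0.0288 with 0 surrogate variables, −0.0033 without the filter and −0.0696 after the correction for GC content and length. As libraries were left out, Hist1h1d ran from −0.50 to 0.0029, Hist1h1e from −0.26 to 0.25, Hist1h2ac from −0.17 to 0.13, Hist1h2be from −0.0764 to 0.13 and Hist4h4 from −0.0671 to 0.12. Depth limits the genes with few reads, such as Hist4h4 with 6 to 17 counts per library.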
